A study of Mus musculus with 17 samples.

Results

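Proteasome and immunoproteasome genes were examined in sorted mouse monocytes and monocyte progenitors. They were taken as every gene of the array annotation whose symbol begins with Psm, a letter from a to g and a number, pseudogenes apart, with the brightest single-gene probe set standing for each gene. The rule used no measured difference, and it gave 49 of the 22180 genes on the Affymetrix MoGene 2.0 array. Of these, 40 code for standard subunits, activators, an inhibitor or assembly chaperones, and 5 are the immunoproteasome and PA28 genes Psmb8, Psmb9, Psmb10, Psme1 and Psme2. Another 2 are core subunits best known from single tissues (Psma8 in testis and Psmb11 in thymus). The last 2, Psmc3ip and Psme3ip1, share only the name and are described apart. Psma4 was not among them, since its probe sets are annotated with a further gene.

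The proteasome is the barrel-shaped protease that degrades ubiquitin-tagged proteins in cytosol and nucleus. Its 20S core is built of alpha rings, which gate the entrance, and beta rings, in which Psmb5, Psmb6 and Psmb7 carry the proteolytic sites. The 19S regulator caps the core, with ATPases (Psmc) that unfold the substrate and non-ATPase subunits (Psmd) that bind and remove ubiquitin. Interferon induces 3 alternative catalytic subunits, Psmb8, Psmb9 and Psmb10, which take the places of Psmb5, Psmb6 and Psmb7 in newly built cores, and the PA28 activator made of Psme1 and Psme2. This immunoproteasome shapes the peptides shown on MHC class I, and cells of the myeloid lineage carry much of it at rest.

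The 17 arrays fall into 5 groups of cells from mice aged 8 to 12 weeks. DT-Ly6C+ monocytes (4 arrays) were taken from the spleen of CD11c-DTR mice 48 h after diphtheria toxin (DT), which depletes cells that carry the toxin receptor under the CD11c promoter. G-CSF-Ly6C+ monocytes (3 arrays) came from spleen, are labelled as induced by Flt3L and G-CSF, and are described in the study as taken from wild-type mice given G-CSF. PBS-Ly6C+ monocytes (4 arrays) were from the spleen of CD11c-DTR mice 48 h after PBS. DT and PBS cells were sorted as lineage-negative, CD11b+, CD115high and Ly6Chigh, whereas for the G-CSF cells the study gives a gate on lineage, CD11b and Ly6C with no CD115. Ly6Cneg monocytes (3 arrays) are labelled as splenic cells of PBS-injected mice, and the protocol in the labels gives CD11c-DTR mice for all monocytes, whereas the study's legend describes C57BL/6 mice, so their genotype is not settled. Of the arrays 1 is named as a pool. The common monocyte progenitor, or cMoP (3 arrays), is the committed precursor in bone marrow, here of untreated C57BL/6 mice. The strain of all samples is labelled C57BL/6. The study describes cells of individual mice or of pools, and which array holds which is not labelled, so p-values measure the spread between arrays only, which may be technical.

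Array names begin with G32 or JS, and the prefix divides the groups. The JS names cover 3 DT, 3 G-CSF and 3 PBS arrays. The G32 names cover 1 DT, 1 PBS, the 3 Ly6Cneg and the 3 cMoP arrays. Comparisons were therefore made within a prefix with limma, with a mean for each group within each prefix and all 22180 genes entered the Benjamini-Hochberg adjustment of p (threshold 0.05). Values are deposited log2 RMA levels, and differences are differences of log2 means with the standard error of the fit. The brightness of probe sets differs, so levels are compared between groups and not between genes.

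The arrays labelled PBS-Ly6C+ were not alike. Over all genes the G32 PBS array correlated with the JS PBS arrays at 0.919 to 0.923 and with the 4 DT arrays at 0.974 to 0.98, whereas the JS PBS arrays among themselves reached at least 0.983. Progenitor markers (8 of 8 measured) had a mean log2 level of 6.19 to 6.40 on JS DT arrays and 6.35 to 6.69 on G-CSF arrays, against 10.69 to 10.77 on JS PBS arrays. They stood at 6.32 on the G32 PBS array and at 10.80 to 10.92 on cMoP arrays. Cell cycle genes (8 of 9 measured) averaged 7.34 to 7.50 on JS DT arrays, against 9.49 to 9.55 on JS PBS arrays. Neutrophil markers were likewise 8.63 to 8.91 on JS DT arrays and 10.55 to 10.60 on JS PBS arrays, and T cell markers 4.73 to 4.92 and 6.68 to 6.93. The JS DT arrays in turn lay above other arrays in neutrophil markers, which were 7.92 to 7.95 on G-CSF arrays, 6.66 on the G32 DT array and 6.29 on the G32 PBS array. Classical monocyte markers were 11.58 to 11.64 on JS DT arrays, against 9.49 to 9.66 on JS PBS arrays. The JS PBS arrays thus went against their label in these lists, so the differences between DT and PBS cells that are named below are followed by the values of the single G32 pair. There is no G32 array of G-CSF cells to set beside the G-CSF comparison. The Ly6Cneg arrays in turn carried B cell markers at 5.75 to 7.51 and dendritic cell markers at 7.0 to 8.50, against 5.16 to 5.34 and 5.36 to 5.63 on cMoP arrays. NK cell markers were at 4.83 to 6.79 on Ly6Cneg arrays and 4.36 to 4.58 on cMoP arrays, and T cell markers at 5.12 to 5.69 and 4.67 to 4.91. Of these lists 3 of 5 B cell, 4 of 5 dendritic cell, 2 of 4 NK cell and 2 of 6 T cell genes passed the test as higher in Ly6Cneg monocytes. Of all genes tested 13.5% were higher and 19.4% lower there. Neutrophil markers were at 5.92 to 6.51 on Ly6Cneg arrays and 5.27 to 5.54 on cMoP arrays, with 4 of 7 genes higher and 1 lower. In RNA of sorted cells, fewer cells of a type and less RNA per cell cannot be told apart.

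Promoter sequences are shown for 6 genes described below. Psmb8 and Psmb9 among them did not pass the test between DT and PBS cells or between Ly6Cneg monocytes and cMoP. Psmb10, Psmb8 and Psmb9 are the inducible catalytic subunits, Psmb5 is the constitutive partner of Psmb8, and Psme4 and Psmg1 had the highest and lowest DT minus PBS difference of the 47 members left once the 2 genes sharing only the name are set aside. Each window is the RefSeq sequence (build GRCm38.p6) from 250 bases before to 50 bases after the annotated start of the gene, read 5′ to 3′ on the strand of the gene. Capitals mark matches, on either strand, to the motifs searched, namely GAAANNGAA (core of the interferon-stimulated response element), TTCNNNGAA (core of the STAT-binding GAS element), TGACNNNGC (core of the antioxidant response element, a form of which is bound by the proteasome gene activator Nfe2l1), CCAAT and the NF-kB motif.
Psmb10, chr8:105938343-105938642, minus strand: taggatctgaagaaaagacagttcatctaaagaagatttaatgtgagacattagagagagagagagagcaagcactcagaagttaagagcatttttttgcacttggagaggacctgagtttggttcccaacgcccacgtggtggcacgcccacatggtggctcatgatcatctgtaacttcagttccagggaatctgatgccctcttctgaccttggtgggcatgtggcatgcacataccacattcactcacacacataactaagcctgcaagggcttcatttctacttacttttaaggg
Psmb8, chr17:34197945-34198244, plus strand: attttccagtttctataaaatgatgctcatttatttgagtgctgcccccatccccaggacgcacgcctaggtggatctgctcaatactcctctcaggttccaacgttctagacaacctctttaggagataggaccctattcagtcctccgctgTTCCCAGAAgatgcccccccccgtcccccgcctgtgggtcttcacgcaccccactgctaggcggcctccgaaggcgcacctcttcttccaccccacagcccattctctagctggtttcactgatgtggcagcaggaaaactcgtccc
Psmb9, chr17:34187281-34187580, minus strand: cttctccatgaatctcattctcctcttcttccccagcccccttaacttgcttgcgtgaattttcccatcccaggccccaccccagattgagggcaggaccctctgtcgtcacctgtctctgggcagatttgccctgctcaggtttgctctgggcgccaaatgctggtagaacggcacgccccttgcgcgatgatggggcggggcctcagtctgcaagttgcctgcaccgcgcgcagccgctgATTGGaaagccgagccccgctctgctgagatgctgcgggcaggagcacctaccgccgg
Psmb5, chr14:54617946-54618245, minus strand: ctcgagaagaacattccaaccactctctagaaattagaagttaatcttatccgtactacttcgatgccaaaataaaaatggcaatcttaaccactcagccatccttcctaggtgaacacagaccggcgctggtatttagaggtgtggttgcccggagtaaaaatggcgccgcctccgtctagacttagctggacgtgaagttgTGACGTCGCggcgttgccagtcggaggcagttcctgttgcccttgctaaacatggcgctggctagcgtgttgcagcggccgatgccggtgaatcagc
Psme4, chr11:30771525-30771824, plus strand: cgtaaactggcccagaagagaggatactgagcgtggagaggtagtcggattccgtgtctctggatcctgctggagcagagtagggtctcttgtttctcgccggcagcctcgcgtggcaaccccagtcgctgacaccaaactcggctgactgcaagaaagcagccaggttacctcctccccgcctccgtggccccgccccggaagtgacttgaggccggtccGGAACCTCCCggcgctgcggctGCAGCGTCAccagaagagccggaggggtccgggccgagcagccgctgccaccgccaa
Psmg1, chr16:95990911-95991210, minus strand: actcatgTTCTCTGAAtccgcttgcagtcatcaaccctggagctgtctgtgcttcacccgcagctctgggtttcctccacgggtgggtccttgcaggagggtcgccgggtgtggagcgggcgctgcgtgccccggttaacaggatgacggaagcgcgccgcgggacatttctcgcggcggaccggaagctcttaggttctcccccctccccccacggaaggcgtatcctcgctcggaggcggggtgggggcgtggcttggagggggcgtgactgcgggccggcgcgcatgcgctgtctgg

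The table held 45 windows for 41 of the 49 genes, and Psmb1, Psmb2, Psmb7, Psmc3, Psmd3, Psmd7, Psmg2 and Psma8 are named only. The antioxidant response core lay in 13.3% of these windows (Psmb5, Psmb6, Psmc6, Psmd12, Psmd9 and Psme4), against 12.4% of all 32851 windows in the table. The interferon-stimulated response core lay in 15.6% of them, against 8.56% of all windows, and its genes (Psmb3, Psmb4, Psmc2, Psmd4, Psmd9, Psme1 and Psmg4) include 1 of the 5 immunoproteasome and PA28 genes. The GAS core lay in 6.67% of them (Psmb8, Psmd2 and Psmg1), against 8.3% of all windows. CCAAT lay in 35.6% and 37.4% of the windows, and the NF-kB motif in 13.3% and 8.46%. In Psmb5 the antioxidant core spans bases -47 to -39 from the start, and in Psmb8 the GAS core spans -97 to -89. The Psmb10 window held none of the motifs, and its G and C content was 45.7%, against 51.7% to 67.7% for the other 5 windows. Whether the annotated starts are those used in these cells was not measured.

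Among the immunoproteasome and PA28 genes, Psmb10 alone passed the test in DT and in G-CSF monocytes. In JS DT monocytes Psmb10 rose 1.59-fold over JS PBS cells, whereas Psmb8, Psmb9, Psme1 and Psme2 did not pass the test. Psmb10, the inducible subunit with trypsin-like activity, read 10.62, 10.68 and 10.61 on the JS DT arrays and 10.58, 10.56 and 10.59 on the G-CSF arrays, against 10.09, 9.96 and 9.84 on the JS PBS arrays. All DT and G-CSF arrays lay above all JS PBS arrays. The log2 difference was 0.67 ± 0.12 (SE, adjusted p = 0.000791 by limma) for DT and 0.61 ± 0.12 (adjusted p = 0.00193) for G-CSF. In the G32 pair Psmb10 read 10.92 with DT and 10.32 with PBS, so the difference had the same direction and a similar size there. That direction was not particular to Psmb10, since the G32 DT array was the higher in 45 of the 49 genes (median 0.37). Psmb10 also passed the test in the additive fit of the whole labelled groups, with a log2 difference of 0.66 for DT and 0.60 for G-CSF.

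Psmb8, which has chymotrypsin-like activity, read 8.99, 9.03 and 9.08 on the JS DT arrays, against 9.02, 8.94 and 8.95 on the JS PBS arrays. These overlapped, and the difference of 0.07 had a 95% interval from -0.20 to 0.33 (adjusted p = 0.804). Psmb9, the inducible partner of Psmb6, read 10.83, 10.99 and 10.91 with DT, against 10.71, 10.84 and 10.62 with PBS on JS arrays, a difference of 0.19 with an interval from -0.09 to 0.46. Psme1 differed by 0.17 (interval -0.09 to 0.44). Psme2 read 7.58, 7.99 and 7.76 on JS DT arrays, against 7.16, 7.65 and 7.22 on JS PBS arrays, and its difference of 0.43 carried a wide interval from -0.09 to 0.95. In the G32 pair the values with DT and with PBS were 9.23 and 8.91 for Psmb8, 11.40 and 10.83 for Psmb9, 10.48 and 10.16 for Psme1 and 8.24 and 8.03 for Psme2, so the DT array was the higher of the 2 for each. The interval of Psme2 includes both no difference and an increase as large as that of Psmb10. Interferon-stimulated genes (8 of 9 measured) averaged 8.28 to 8.37 on the JS DT arrays, against 6.73 to 6.95 on the JS PBS arrays. In the G32 pair they averaged 7.72 with DT and 7.81 with PBS. Their part in the Psmb10 difference was not tested.

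**Figure D1:**
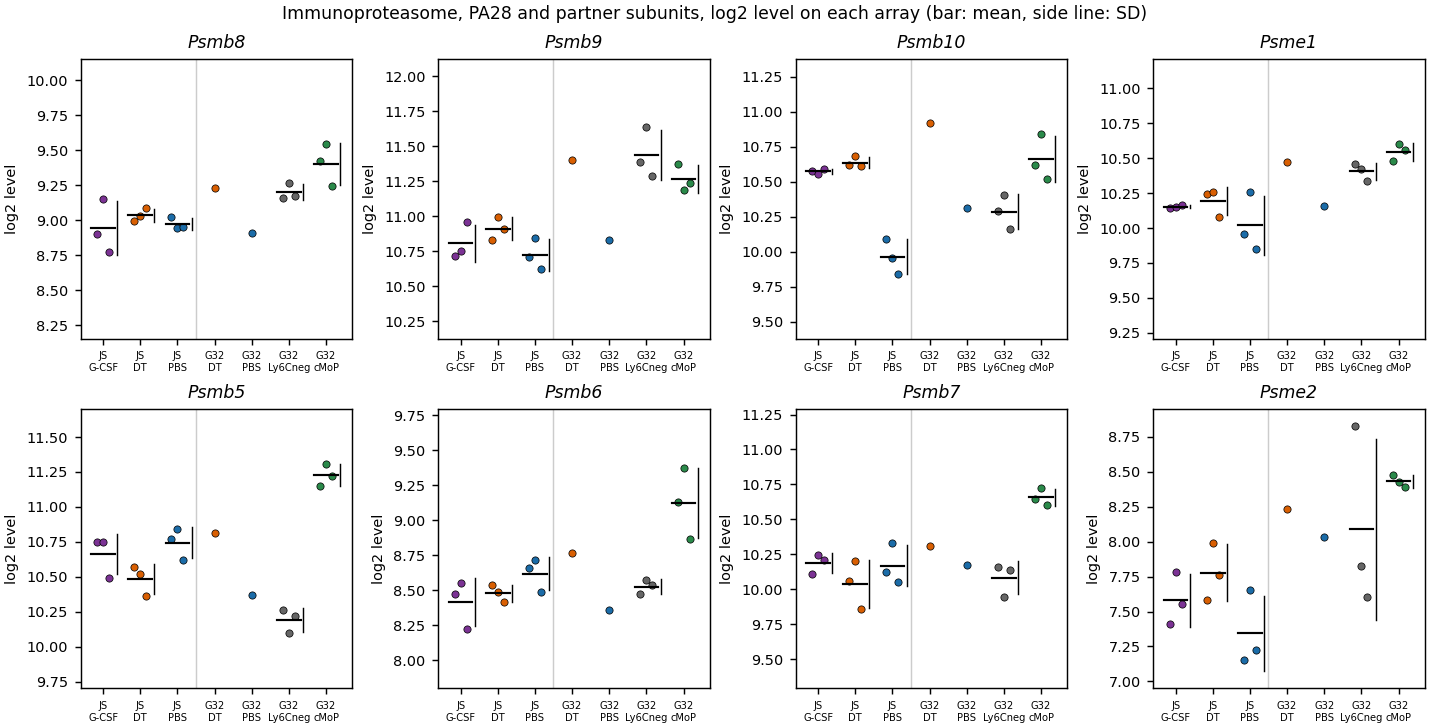
Log2 level of the immunoproteasome genes, PA28 genes and constitutive partners on each of the 17 arrays (y axis), grouped by array-name prefix and cell group (x axis), with bars at the mean and side lines for the SD of 3 arrays. Psmb10 lies between 10.56 and 10.68 on all DT and G-CSF arrays of the JS names and between 9.84 and 10.09 on the JS PBS arrays, while Psmb5 is highest on the cMoP arrays (11.15 to 11.31).

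Between Ly6Cneg monocytes and cMoP, 1 of the 5 genes passed the test. Psmb10 fell, by 0.38 ± 0.12 on the log2 scale (adjusted p = 0.028), and it lost the call when any of 4 arrays (2 of each group) was left out. It read 10.29, 10.41 and 10.16 on Ly6Cneg arrays, against 10.62, 10.84 and 10.52 on cMoP arrays. Psmb9 read 11.39, 11.64 and 11.29 on Ly6Cneg arrays, against 11.38, 11.19 and 11.24 on cMoP arrays, a difference of 0.17 with an interval from -0.11 to 0.45. Psmb8 differed by -0.20 (interval -0.47 to 0.06) and Psme1 by -0.14 (interval -0.40 to 0.13). Psme2 read 8.83, 7.83 and 7.61 on the Ly6Cneg arrays, against 8.48, 8.42 and 8.39 on the cMoP arrays, and the first of these, on the array named 2, lay above all cMoP arrays and the other two below. The Ly6Cneg arrays also carried the B cell, dendritic cell, NK cell, T cell and neutrophil markers given above, whose part in these levels was not tested.

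The constitutive catalytic subunits did fall in Ly6Cneg monocytes. Psmb5 read 10.26, 10.10 and 10.22 on Ly6Cneg arrays, against 11.15, 11.31 and 11.22 on cMoP arrays, which gave a difference of -1.04 ± 0.12 (adjusted p = 5.96e-06). Psmb6 differed by -0.60 ± 0.14 (adjusted p = 0.00341) and Psmb7 by -0.57 ± 0.13 (adjusted p = 0.00218). The groups did not overlap in any of the 3 genes, and the share of all genes without overlap was not computed. Of all genes tested 19.4% passed as lower in this comparison. In DT against PBS cells of the JS names none of the 3 passed, with differences of -0.26 for Psmb5, -0.14 for Psmb6 and -0.13 for Psmb7. The G32 pair went the other way, with DT minus PBS at 0.44 for Psmb5, 0.41 for Psmb6 and 0.14 for Psmb7.

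The difference of the inducible minus the constitutive subunit within an array shows whether a pair changed unequally. For Psmb8 and Psmb5 it was -0.99 ± 0.14 on Ly6Cneg arrays and -1.82 ± 0.14 on cMoP arrays (SD, n = 3 each), so it was 0.83 higher in Ly6Cneg monocytes. For Psmb9 and Psmb6 it was 2.91 ± 0.16 and 2.14 ± 0.29 in the same order, a shift of 0.77. For Psmb10 and Psmb7 the shift was only 0.20. In JS DT cells the Psmb10 and Psmb7 pair showed the widest shift, with 0.60 ± 0.14 in DT, 0.39 ± 0.08 in G-CSF and -0.21 ± 0.17 in PBS cells. The DT minus PBS shifts of the other pairs were 0.33 each. On the G32 arrays the Psmb10 and Psmb7 difference was 0.61 with DT and 0.14 with PBS, and that of Psmb9 and Psmb6 was 2.64 and 2.47. For Psmb8 and Psmb5 it was -1.58 with DT and -1.46 with PBS, opposite in direction to the JS arrays. By exact two-sided permutation tests over 12 comparisons, p was 0.1 for 9 of them, and 0.1 is the smallest value that 3 against 3 arrays allow (adjusted p = 0.133), so this design cannot pass the threshold. Leading shifts thus differed between the comparisons. In Ly6Cneg monocytes they were those of the pairs with Psmb8 and Psmb9, where Psmb5 and Psmb6 passed as lower and Psmb8 and Psmb9 did not pass. In DT and G-CSF monocytes it was that of the pair with Psmb10, which passed as higher. The difference between comparisons was not tested.

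**Figure D2:**
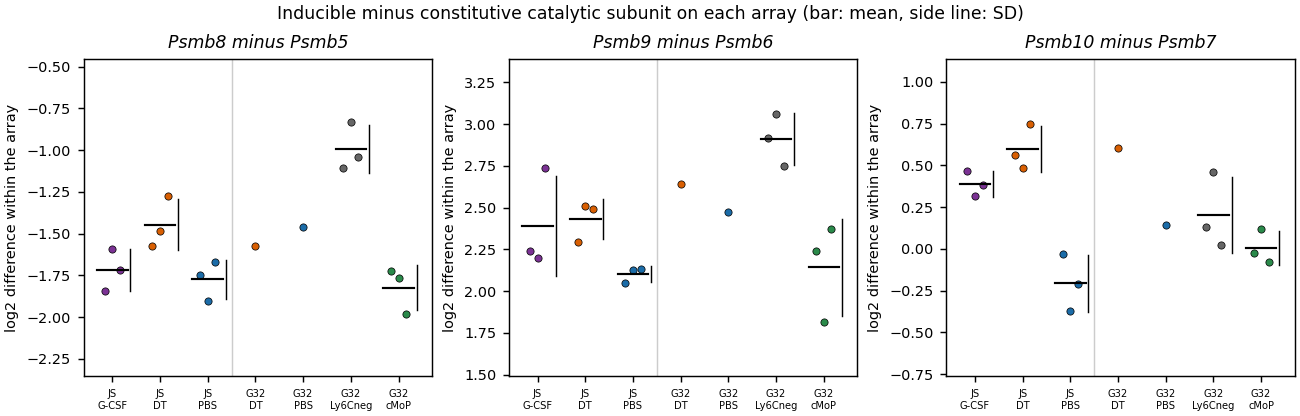
Log2 level of the inducible minus the constitutive catalytic subunit within each array (y axis) for 3 pairs, by prefix and group (x axis), with mean bars and SD lines. The Ly6Cneg arrays lie above the cMoP arrays for the first and second pair (means -0.99 and -1.82, 2.91 and 2.14), and the JS DT arrays above the JS PBS arrays for the third (means 0.60 and -0.21).

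Among the standard members the drop between cMoP and Ly6Cneg monocytes was broad. Of 40 standard members 36 were lower in Ly6Cneg monocytes, 4 did not pass and none was higher. Over all 49 genes 40 were lower and 0 higher, where 19.4% of all genes tested were lower and 13.5% higher. The median log2 difference of the standard members was -0.93, against 0.07 for all genes. The 4 standard members that did not pass were Psma5, Psmb3, Psmd8 and Psme4. Cell cycle genes were 7.27 to 7.45 on Ly6Cneg arrays, against 10.13 to 10.20 on cMoP arrays, and progenitor markers 6.50 to 6.87 and 10.80 to 10.92, and their part in the drop was not tested. The cMoP came from marrow of untreated C57BL/6 mice and the Ly6Cneg monocytes from spleen, by their labels of PBS-injected mice. Tissue, injection, a possible difference of genotype and cell type therefore cannot be told apart.

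Differences between roles were not tested and are given as counts and medians. In the alpha ring 5 of 6 genes were lower with a class median of -0.72, from Psma3 at -0.48 to Psma1 at -1.07. In the beta ring 6 of 7 were lower, and the class median was -0.57. All 6 ATPases fell, with a median of -1.21. Psmc1, a base ATPase, read 9.18, 8.95 and 9.02 on Ly6Cneg arrays, against 10.32, 10.57 and 10.62 on cMoP arrays. Of the non-ATPase subunits 10 of 11 fell (median -1.09), with Psmd7, a partner of the deubiquitinase Psmd14 in the lid, the furthest at -1.82 ± 0.22. Psmd7 read 8.27, 7.73 and 8.31 on Ly6Cneg arrays and 9.72, 9.88 and 10.18 on cMoP arrays. All 7 assembly chaperones fell (median -1.27). These genes do not stay in the finished particle, since Psmg1 to Psmg4 help to pair and stack the alpha ring and Psmd5, Psmd9 and Psmd10 hold ATPases of the base during assembly.

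Psmg1, which acts as a heterodimer with Psmg2 at the first step of alpha ring assembly, was the gene with the largest difference. It read 5.36, 5.87 and 6.80 on Ly6Cneg arrays, against 8.70, 9.11 and 8.99 on cMoP arrays, a difference of -2.93 ± 0.30 (adjusted p = 1.12e-06). Psmd5 fell by 1.74 ± 0.22 on the log2 scale in Ly6Cneg monocytes (adjusted p = 1.22e-05). The activators behaved unequally. Psme3, which forms the nuclear PA28 gamma cap, differed by -0.96 ± 0.13, and the inhibitor Psmf1 (PI31) by -0.54 ± 0.15, and both passed. Psme4 (PA200), a nuclear cap linked to histone turnover, read 8.39, 8.33 and 8.24 on Ly6Cneg arrays and 8.38, 8.33 and 8.53 on cMoP arrays, a difference of -0.09 with an interval from -0.35 to 0.17.

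**Figure D3:**
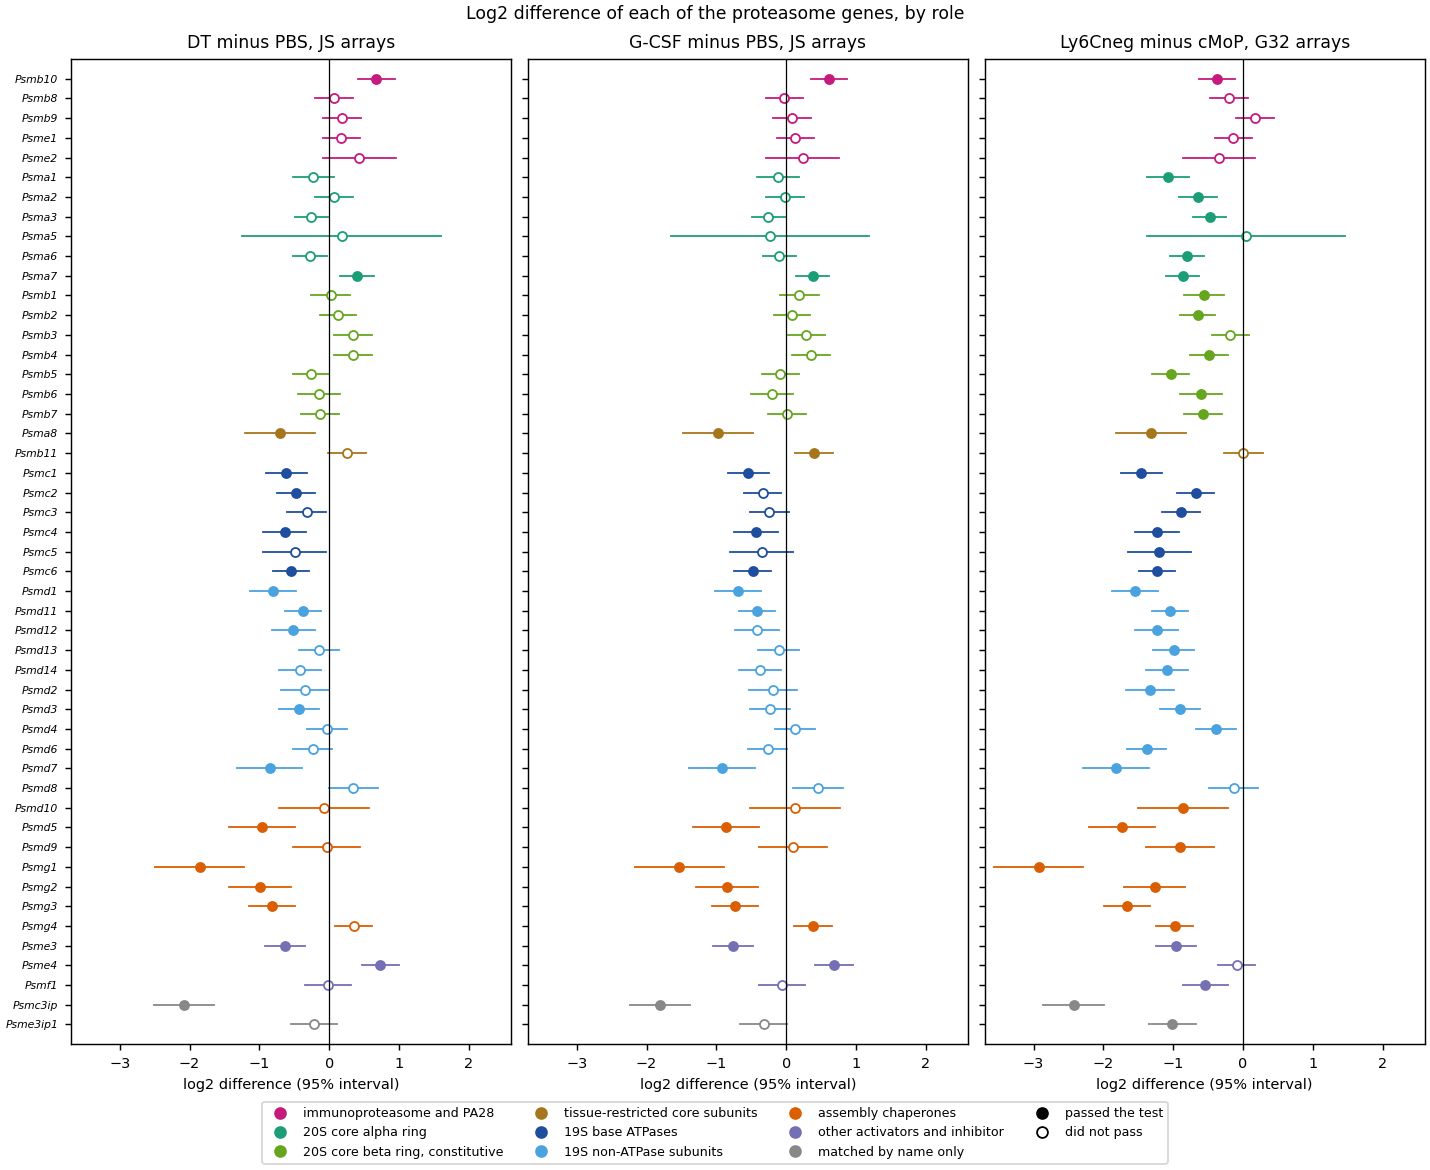
Log2 difference of each of the 49 genes (rows, coloured by role) with its 95% interval, for DT minus PBS and G-CSF minus PBS on JS arrays and Ly6Cneg minus cMoP on G32 arrays. Filled points passed an adjusted p of 0.05, which on the right holds for 40 genes, all lower, and on the left for 16 lower and 3 higher genes.

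Between DT-Ly6C+ and PBS-Ly6C+ cells of the JS names, the genes that fell were mostly those of the regulator and the chaperones. Over the 49 genes 16 were lower and 3 higher, where 10% of all genes were lower and 9.46% higher. Among the standard members 14 of 40 were lower and 2 higher, with a median of -0.26 against 0.02 for all genes. No core subunit of the alpha or constitutive beta ring was lower, and Psma7 alone of these 13 was higher. Of the 6 ATPases 4 fell, namely Psmc4 (-0.64), Psmc1 (-0.62), Psmc6 (-0.54) and Psmc2 (-0.48), while Psmc5 (-0.49) and Psmc3 (-0.32) did not pass. Of the 11 non-ATPase subunits 5 fell, from Psmd7 (-0.85) and Psmd1 (-0.81) to Psmd11 (-0.37). Psmd3, Psmd7, Psmd11 and Psmd12 lost the call without JS DT 3, and again without JS PBS 2, so that Psmd1 was the 1 of these 5 to keep it in both. Psmc2 lost it without any of 3 arrays (JS DT 1, JS PBS 1 or JS PBS 2). In the G32 pair the DT array lay above the PBS array for all 6 ATPases, by 0.32 to 0.53, and for all 11 non-ATPase subunits, by 0.03 to 0.94, opposite in direction to the falls. Whether core and regulator differed from each other was not tested.

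Of the 7 assembly chaperones 4 were lower in JS DT cells, and the class median of -0.82 was the furthest among the classes of standard members. The fall was not shared by the whole class. Psmd9 (JS means 6.661 with DT and 6.699 with PBS) and Psmd10 (7.422 and 7.499) hardly differed and did not pass. Psmg1 read 6.63, 5.79 and 6.16 on the JS DT arrays and 6.83, 6.64 and 6.07 on the G-CSF arrays, against 8.17, 7.99 and 7.99 on the JS PBS arrays. The groups lay far apart, with differences of -1.86 ± 0.30 for DT (adjusted p = 0.000249) and -1.53 ± 0.30 for G-CSF (adjusted p = 0.00145). Psmg2, its partner, read 7.27, 7.07 and 6.87 with DT, against 8.12, 8.25 and 7.80 with PBS on JS arrays (-0.99 ± 0.21, adjusted p = 0.00249). Psmd5 (-0.97 ± 0.22) and Psmg3 (-0.82 ± 0.16) fell as well. Psmg4, the partner of Psmg3, moved apart from it, at 8.49, 8.31 and 8.20 with DT and 8.02, 7.87 and 8.05 with PBS on JS arrays. Its difference of 0.35 did not pass (adjusted p = 0.0631), although the arrays did not overlap, and in G-CSF cells it was 0.39 (adjusted p = 0.0416), a call that ended when any of 9 arrays was left out (adjusted p up to 0.14). In the G32 pair Psmg4 read 8.68 with DT and 8.02 with PBS, and the DT array was above the PBS array for all 7 chaperones.

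Psme4 showed the largest rise. It read 9.09, 9.39 and 9.26 on the JS DT arrays and 9.08, 9.20 and 9.32 on the G-CSF arrays, against 8.39, 8.57 and 8.58 on the JS PBS arrays. The difference was 0.73 ± 0.13 for DT (adjusted p = 0.000415), which is 1.66-fold, and 0.69 ± 0.13 for G-CSF (adjusted p = 0.000826). It read 8.95 with DT and 8.93 with PBS in the G32 pair, so the rise was not seen there. Psma7, an alpha ring subunit, read 11.21, 11.29 and 11.28 on JS DT arrays, against 10.86, 10.88 and 10.84 on JS PBS arrays (0.40 ± 0.11, adjusted p = 0.0181). The G32 arrays read 11.44 with DT and 11.17 with PBS. Leaving out any of 3 arrays, JS DT 2, JS DT 3 or JS PBS 3, ended the call for Psma7, and in G-CSF cells its call ended without any of 5 arrays.

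The single G32 pair gave another picture for most of the genes that fell. The G32 DT array lay above the G32 PBS array in 45 of 49 genes, with a median of 0.37, and the G32 PBS array lay nearer the JS DT mean than the JS PBS mean in 38 of 49 genes. For Psmg1 the G32 DT array read 6.54 and the G32 PBS array 5.18, and for Psmg2 they read 7.36 and 6.80. Since G32 has 1 DT and 1 PBS array, an interaction can only be computed with their spread assumed equal to that of the other groups. On that assumption 13 genes passed, all with a lower DT minus PBS difference on JS than on G32 arrays (0 with a higher one), where 5.36% of all genes tested were lower and 2.94% higher in this interaction. The 13 were led by Psmg1 (-3.22 ± 0.60, adjusted p = 0.00287), Psmc3ip (-2.02), Psmg2 (-1.55) and Psmg3 (-1.45). None of the 5 immunoproteasome and PA28 genes was among them. An effect of DT that differs and the state of those 2 single arrays cannot be told apart. The number of genes called here was 6 when JS DT 3, JS PBS 1 or JS PBS 2 was left out, and 8 without JS DT 1.

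When all 4 DT and all 4 PBS arrays were fitted together with an additive term for the prefix, 4 genes were higher and 1 lower in DT cells, where 6.75% and 5.74% of all genes tested were higher and lower. The 4 were Psma7, Psmb10, Psme4 and Psmg4, and the lower one was Psmc3ip. In that fit Psmg1 had a difference of -1.05 and did not pass (adjusted p = 0.145). G-CSF cells against PBS cells gave 4 higher and 3 lower in the same fit, where 6.28% and 6.22% of all genes were higher and lower. Both fits called Psma7, Psmb10 and Psme4 higher in DT cells. In the first fit these were 3 of 49 genes, where 9.46% of all genes were higher. With no prefix term Psma7 was not called. The falls of ATPases, non-ATPase subunits and chaperones in DT cells were not called by the additive fit. Both fits share the JS arrays, so their likeness is not independent. The rises and the falls, as the first fit gives them, rest on the JS PBS arrays. Those arrays carry the progenitor, cell cycle, neutrophil and T cell markers given above. The part of these cells in the rises and falls was not tested.

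**Figure D4:**
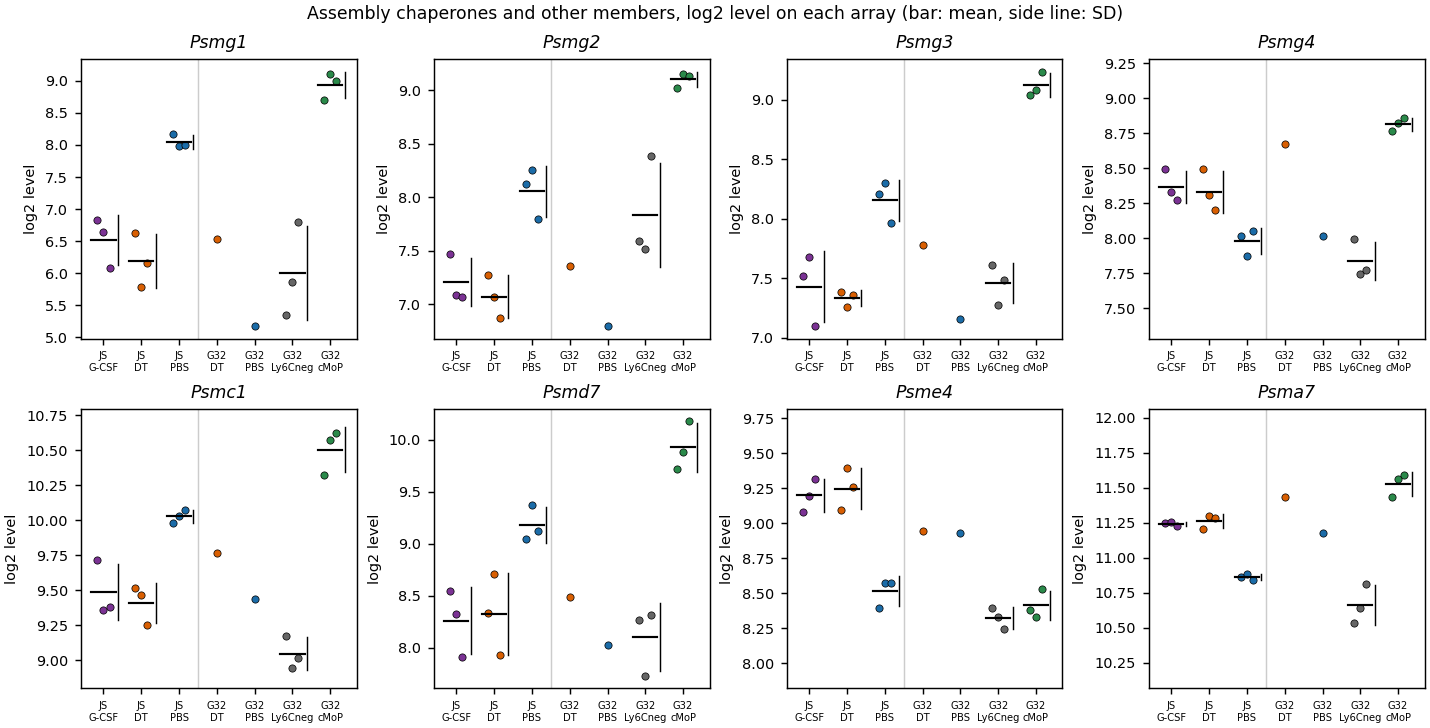
Log2 level of 4 assembly chaperones (Psmg1 to Psmg4) and of Psmc1, Psmd7, Psme4 and Psma7 on each array (y axis) by prefix and group (x axis), with mean bars and SD lines. Psmg1 lies between 7.99 and 8.17 on the JS PBS arrays, at 5.18 on the G32 PBS array and between 5.79 and 6.63 on the JS DT arrays.

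In G-CSF-Ly6C+ monocytes the same classes held the calls. Against the JS PBS arrays 13 of the 49 genes were lower and 5 higher, where 9.80% of all genes were lower and 9.13% higher. The lower ones included 3 of 6 ATPases, 3 of 11 non-ATPase subunits and 4 of 7 chaperones, and the higher ones were Psme4, Psmb10, Psmb11, Psmg4 and Psma7. Psmb11 is a dim probe set, at 4.30 to 4.60 on the G-CSF arrays and 3.94 to 4.29 on the JS PBS arrays, near the floor of the array. Psmd7 fell by 0.92 ± 0.22 on the log2 scale and Psma8 by 0.98 ± 0.24. This comparison and that of DT cells share the JS PBS arrays, so their likeness is not independent. As the study describes them, G-CSF cells also differ from DT and PBS cells in mouse genotype and sort gate. Treatment, genotype and gate cannot be told apart.

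Set directly against each other, G-CSF and DT monocytes gave 0 calls among the 49 genes by limma, with 0 also at an unadjusted p under 0.05, where 0.0361% of all genes tested were higher and 0.0271% lower in G-CSF cells. No gene of the 49 was called by any alternative fit either. The differences ran from -0.41 for the dim Psma5 to 0.32 for Psmg1, and the median was 0.06. For Psmb10 the difference was -0.06 with an interval from -0.32 to 0.20, and for Psme4 it was -0.05. For Psmg1 the interval was wider, from -0.32 to 0.96.

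The G32 DT array could also be set against the progenitor and Ly6Cneg arrays, with 1 array on the DT side, whose spread is assumed to equal that of the other groups. Against cMoP 19 of 49 genes were lower and 1 higher, where 9.04% of all genes were lower and 8.07% higher. Psmg1 differed by -2.40 ± 0.42, Psmg2 by -1.74 ± 0.29 and Psmd7 by -1.44 ± 0.31, and Psme4 was higher by 0.54 ± 0.18 (adjusted p = 0.0487), a call that ended when any of 12 arrays was left out (adjusted p up to 0.115). None of the 5 immunoproteasome and PA28 genes passed, from -0.19 for Psme2 to 0.26 for Psmb10, and neither did any of the 7 constitutive beta subunits. With the 3 JS DT arrays in place of that array, an alternative chosen after seeing the data, 38 genes were lower and 1 higher. Psmb9 then changed direction, with a difference of -0.36 (adjusted p = 0.0478), against 0.14 with the G32 DT array, and that value crosses the array-name prefixes.

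Against Ly6Cneg monocytes the G32 DT array was higher in 8 genes and lower in 0, where 5.83% of all genes were higher and 2.07% lower. The 8 were Psmd6 (1.03 ± 0.19, adjusted p = 0.00257), Psmg4 (0.84 ± 0.18), Psma7 (0.78 ± 0.16), Psmd13 (0.76 ± 0.19), Psmc1 (0.72 ± 0.19), Psmb10 (0.63 ± 0.17), Psme4 (0.63 ± 0.18) and Psmb5 (0.62 ± 0.17). Psmd6, a non-ATPase subunit of the lid, read 9.93 on the G32 DT array, against 8.82, 9.05 and 8.82 on the Ly6Cneg arrays. On the JS DT arrays it read 9.25, 9.30 and 9.18. Psmb5, Psme4, Psmb10 and Psmc1 lost the call when any of 8, 6, 3 and 2 arrays was left out. The count was 4 without the Ly6Cneg array named pool and 5 without the one named new.

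The order of the groups summarised these levels. Among the 40 standard members the mean of the labelled group was highest in cMoP for 37 and lowest in Ly6Cneg monocytes for 26. For the 5 immunoproteasome and PA28 genes the lowest group was PBS-Ly6C+ in 4 and the highest was cMoP in 3. Relative to the cMoP mean, the median of the standard members was -0.67 to -0.83 on JS DT arrays, -0.58 to -0.85 on G-CSF arrays, -0.84 to -0.98 on Ly6Cneg arrays and -0.48 to -0.60 on JS PBS arrays. It was -0.57 on the G32 DT array and -0.92 on the G32 PBS array. The immunoproteasome and PA28 median was -0.28 to -0.41 on JS DT arrays, -0.38 to -0.50 on G-CSF arrays, -0.09 to -0.23 on Ly6Cneg arrays and -0.46 to -0.69 on JS PBS arrays. The JS arrays are set against G32 arrays here, and the part of the prefix in these shifts was not tested.

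**Figure D5:**
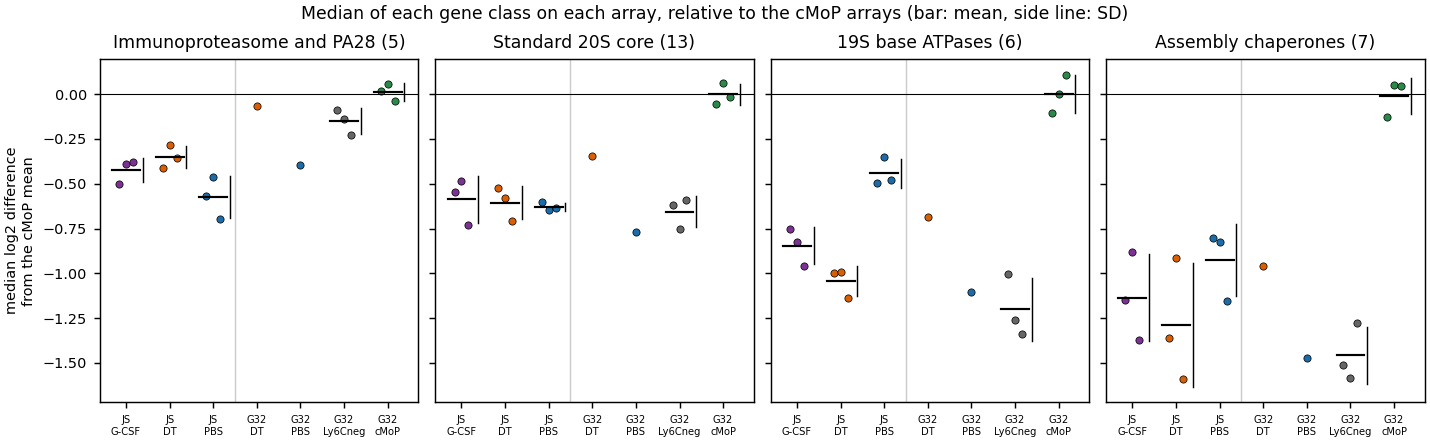
Median log2 difference from the cMoP mean on each array (y axis) for 4 gene classes, by prefix and group (x axis), with mean bars and SD lines. On the Ly6Cneg arrays the immunoproteasome and PA28 median stays within -0.09 to -0.23, while the chaperone median lies at -1.28 to -1.58.

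Genes of the pathway outside the rule were read against the shares of all genes given above, 9.46% higher and 10% lower in DT against PBS cells and 13.5% higher and 19.4% lower in Ly6Cneg monocytes. Among 10 proteasome partners, Pomp, a maturation factor of the core, was higher by 0.66 in JS DT cells and by 0.73 in G-CSF cells than in JS PBS cells. The proteasome-bound deubiquitinases Uchl5 and Usp14 were lower, by -1.57 and -1.03 in DT cells and by -1.60 and -1.04 in G-CSF cells. On the G32 arrays Uchl5 read 8.71 with DT and 8.12 with PBS and Usp14 7.80 and 7.60, so both were higher with DT there, while Pomp (10.67 and 10.21) kept the JS direction. These falls rest on the JS PBS arrays with their progenitor and cell cycle markers, whose part was not tested. In DT against PBS cells 2 of the 10 were higher and 2 lower, the second rise being that of Nfe2l2 (0.40), a regulator of antioxidant genes (11.30 with DT and 11.11 with PBS in the G32 pair). Counts of 2 of 10 lie near the background and are no result about the list. In Ly6Cneg monocytes against cMoP 6 of 10 were lower and 0 higher, led by Uchl5 (-2.53) and Usp14 (-2.27). Of 8 genes of ubiquitin supply and delivery 2 were lower in DT cells (Vcp at -0.67 and Rad23b at -0.36), 3 in G-CSF cells and 5 in Ly6Cneg monocytes, and none was higher in any of these. DT minus PBS in the G32 pair was 0.33 for Vcp and 0.50 for Rad23b, opposite in direction to the JS arrays. In Ly6Cneg monocytes the furthest were Ubqln4 (-1.48) and Vcp (-1.08). Vcp is the segregase that extracts ubiquitin-tagged proteins, and Rad23b and Ubqln4 shuttle them to the proteasome.

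The immunoproteasome feeds class I antigen presentation, and of 12 of its genes measured 7 were higher and 4 lower in Ly6Cneg monocytes than in cMoP, where 13.5% of all genes were higher and 19.4% lower. The furthest rises were those of Irf1 (1.30), a transcription factor of the interferon response, and Tap1 (0.76), a subunit of the peptide transporter of the endoplasmic reticulum. The furthest falls were those of Calr (-1.18) and Canx (-0.92), chaperones of glycoprotein folding, and Erap1, which trims peptides, and Pdia3, a further folding factor, were lower as well (-0.84 and -0.82). In JS DT cells against JS PBS cells 4 were higher, led by Nlrc5 (1.08), the activator of class I genes, and H2-K1 (0.60), a class I heavy chain, and Calr was lower (-1.15). The G32 pair went the other way for each of these, with Nlrc5 at 6.93 with DT and 7.45 with PBS, H2-K1 at 10.22 and 10.37 and Calr at 10.56 and 9.98. The interaction passed for Nlrc5 (1.60, adjusted p = 0.00406) and Calr (-1.72, adjusted p = 0.00476), with the spread of the 2 G32 arrays assumed as above. In G-CSF cells Nlrc5 (0.89) and Tap1 (0.49) were higher and Calr (-0.72) lower.

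Some members need a word of caution. Psma5 and Psmb11 had means below the 30th percentile of all genes (a log2 level of 4.78), and Psma5 ranged from 3.58 to 6.63 over the 17 arrays, with single high arrays in several groups, so no reading is made of their differences. Psma8, a testis subunit, differed by -0.70 ± 0.24 in DT cells and by -1.32 ± 0.24 in Ly6Cneg monocytes. Its call in DT cells ended when any of 10 arrays was left out. Psmc3ip, which shares a name with the ATPase Psmc3 but acts in homologous recombination, read 5.80, 5.99 and 5.31 on JS DT arrays and 6.24, 5.73 and 5.91 on G-CSF arrays, against 7.65, 8.01 and 7.66 on JS PBS arrays. It was 6.58, 6.13 and 6.29 on Ly6Cneg arrays and 8.56, 8.66 and 9.07 on cMoP arrays. The JS PBS and cMoP arrays, on which Psmc3ip was high, were also high in both cell cycle genes and progenitor markers. A link of Psmc3ip to either was not tested. Psme3ip1, which binds Psme3, fell by 1.01 ± 0.16 in Ly6Cneg monocytes against cMoP.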

How the data were processed

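RNA of sorted cells was hybridized by the authors to Affymetrix MoGene 2.0 arrays (17 arrays, 5 groups). The deposited values are log2 levels made by the authors with RMA in the oligo package (version and annotation build not given in the sources used here), that is background correction, quantile normalization and probe set summary. They cover 41345 probe sets, and array medians lay between 5.31 and 5.53. Of 25341 probe sets with a gene annotation, 23521 name 1 gene, and the brightest probe set stood for each of 22180 genes. No columns were left over, and no filter on dim genes was set. The small number of arrays, not read depth, sets the precision.

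R 4.3.3 with limma 3.58.1 fitted a mean for each group within each array-name prefix (10 residual degrees of freedom). Comparisons were made within a prefix because the G32 PBS array did not resemble the JS PBS arrays. The additive fit of whole groups, no prefix term, only the arrays compared, a dim filter, means of probe sets, quantile normalization again, array weights, a trended robust fit, a block by array number and leaving out each array were alternatives. The 3 JS DT arrays in place of the G32 DT array were added as an alternative after seeing the data. The procedure was tested on simulated data. Members and lists were chosen with earlier results of these data known. The 5 immunoproteasome and PA28 genes and Psmb5, Psmb6 and Psmb7 are named throughout, with the 4 furthest rises and falls of the other members per comparison that passed and the 2 furthest of each pathway list. Other names were chosen after their values were seen, as members of a whole class or for a likeness between genes. Figures used Python 3.11.15 with matplotlib 3.10.9 and numpy 2.4.6.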

Additional observations from a re-analysis of the deposited data

Results flagged for a closer look

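Of 98 tests for an array far from the others of its labelled group, 10 were positive, where chance alone gives about 1 in 20 (4.9). In 7 of the 10 the array was the G32 PBS array, set apart from the 3 JS PBS arrays. It read 5.18 for Psmg1 (the others 7.99 to 8.17), 5.66 for Psmc3ip (7.65 to 8.01), 7.92 for Psmd3 (8.81 to 8.99), 8.22 for Psmc3 (8.86 to 8.99), 9.06 for Psmc6 (9.82 to 9.86) and 9.44 for Psmc1 (9.98 to 10.07). For Psma7 it read 11.17, above the others (10.84 to 10.88). The other 3 were JS DT array 1 for the dim Psma5 at 5.34 (3.97 to 4.09), the G32 DT array for Psmd6 at 9.93 (9.18 to 9.30) and JS PBS array 1 for Psma1 at 9.24 (9.45 to 9.47).

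A test of whether the DT minus PBS difference differed between the JS and the G32 arrays passed for 13 genes (limma, interaction, adjusted p under 0.05), with the spread of the single G32 arrays assumed equal to that of the other groups. JS minus G32 was -3.22 for Psmg1, -2.02 for Psmc3ip, -1.55 for Psmg2, -1.45 for Psmg3, -1.17 for Psmd6, -1.09 for Psmc4, -1.08 for Psmc6, -1.07 for Psmd1, -1.02 for Psmd14, -1.01 for Psmd12, -0.95 for Psmc1, -0.95 for Psmc2 and -0.80 for Psma6. The G32 side holds 1 DT and 1 PBS array, and the cause was not tested.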

How the results depend on the processing

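For DT against PBS cells 19 genes passed, against 5 in the additive fit and 4 with no prefix term, and 13 to 21 when an array was left out. For G-CSF against PBS cells 18 passed, against 7 and 4 in those fits, and 13 to 19 without an array. G-CSF against DT gave 0 in all. Ly6Cneg against cMoP gave 40, and 36 to 40 without an array. DT against cMoP gave 20, against 31 with no prefix term and 39 with the 3 JS DT arrays, chosen after seeing the data, and 16 to 22 without an array. With those arrays the Psmb9 difference was -0.36, against 0.14 with the G32 DT array. DT against Ly6Cneg gave 8, against 5 in the additive fit, 4 after quantile normalization again and 14 with the 3 JS DT arrays, and 4 to 9 without an array. The interaction gave 13, and 6 to 15 without an array. The causes were not tested. The array number as a replicate block gave 20 genes for DT and 14 for G-CSF against PBS. Same-numbered arrays correlated at 0.0001 to 0.0895 in their deviations, so the numbers were not taken as pairs. Psmb5 passed for DT against PBS only after quantile normalization again (-0.36), and Psme2 only with the block (0.43). Of 648 alternatives for single-gene differences, 586 kept direction and side of the threshold. These cover only the 5 immunoproteasome and PA28 genes, Psmb5, Psmb6 and Psmb7, and not the counts above.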

Other observations

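Probe sets left out by the rule gave further values, with no test. A second Psmg2 probe set had a log2 level of 6.63 ± 0.22 on JS DT arrays and 7.82 ± 0.27 on JS PBS arrays (SD, n = 3 each). It had 5.89 ± 0.61 on Ly6Cneg arrays and 8.68 ± 0.33 on cMoP arrays. On the G32 pair it read 7.79 with DT and 5.74 with PBS. A second Psmc2 probe set had 8.91 ± 0.12 on JS DT and 9.15 ± 0.19 on JS PBS arrays, which overlapped. It had 8.68 ± 0.16 on Ly6Cneg and 9.42 ± 0.11 on cMoP arrays, and 9.09 with DT and 8.23 with PBS on the G32 pair. A probe set annotated with both Psmd1 and Armc9 had 5.32 ± 0.22 on JS DT and 5.45 ± 0.23 on JS PBS arrays. It had 5.65 ± 0.26 on Ly6Cneg and 5.67 ± 0.24 on cMoP arrays. The brighter probe set annotated with both Psma4, a core alpha subunit, and AY074887 had 8.73 ± 0.41 on Ly6Cneg arrays and 9.58 ± 0.13 on cMoP arrays, against 9.13 ± 0.08 on JS DT and 9.07 ± 0.18 on JS PBS arrays. The probe set annotated with Psme2 and the genes 9930111J21Rik1 and 9930111J21Rik2 had 8.92 ± 0.19 on Ly6Cneg arrays and 7.76 ± 0.25 on cMoP arrays, a direction opposite to that of the single-gene Psme2 probe set. It cannot be assigned to a single gene.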
